A study of Mus musculus with 6 samples.

Results

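Renin-expressing mural cells of the mouse kidney were defined here as single-cell wells of the mesenchyme sort gate that held at least 200 CPM of Ren1, the renin gene, and under 300 CPM of Col1a1, a fibrillar collagen gene of fibroblasts. CPM is the read count of a gene scaled so that the reads on genes of each well sum to 1e6. The wells also had to hold at least 1000 genes and 20000 reads on genes. The rule found 134 wells, called renin wells below, of 1106 kept wells in the gate and 2235 kept wells of both gates. The plates held 27, 25, 15, 26, 20 and 21 of them. Because measured Ren1 and Col1a1 chose the wells, the levels of these genes, and any contrast of renin wells with the other 972 wells of the gate, are descriptions without a test.

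Juxtaglomerular cells sit in the wall of the afferent arteriole at the entrance to the glomerulus, and are modified smooth muscle cells that store renin in granules. Renin cleaves angiotensinogen, the first step of the renin-angiotensin system, which raises blood pressure and retains salt. Cyclic AMP drives the transcription and release of renin, while calcium holds release back, and arteriolar smooth muscle cells can start to make renin when the kidney is challenged.

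The cells came from 6 plates of Smart-seq2, which reads whole transcripts of 1 cell per well. Per the labels, a plate mixed digested and sorted kidney cells of 3 mice: 1 was healthy, and the others had unilateral ureteric obstruction (UUO), the ligation of 1 ureter, for 2 or 10 days. The well layouts give the wells of a condition a number from 1 to 4 (plates 1 and 2 hold number 1, plates 3 and 4 hold numbers 2 and 3, plates 5 and 6 hold number 4). The layouts do not say what the number stands for. It was taken as the mouse, so n = 4 per condition, and a numbered mouse below means this number. The labels state no strain, genotype, sex or age, and no marker of the gates. Reads on genes per plate ranged from 116992491 to 142898570. Each condition and gate filled the same 4 columns in all plates, so effects of a condition and of its columns cannot be told apart.

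Ren1 lies on the plus strand of chromosome 1 (chr1:133350510-133360325, GRCm38). The 120 bases before its RefSeq start are shown because this stretch is the proximal promoter through which renin cells read the gene that defines them. The interval above is from the GENCODE annotation, which starts the gene earlier than RefSeq does, so the stretch lies inside that interval. Capitals mark a HOX-PBX element, known to be needed for Ren1 transcription in renin-expressing cells, and the TATA element.

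Ren1 upstream, chr1:133350554-133350673, plus strand, RefSeq GRCm38.p6: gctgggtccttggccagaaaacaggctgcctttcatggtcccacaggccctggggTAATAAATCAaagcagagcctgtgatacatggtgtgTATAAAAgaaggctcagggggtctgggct

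The first capitals begin at position -65 from the start and the second (TATAAAA) at position -29. Among 32851 RefSeq promoter windows, 250 bases before to 50 after a start and read on both strands, the letters of the first element occurred in 22 (0.067%) and those of the second in 1801 (5.48%). Neither set of letters was found in the window of Akr1b7, the second marker of these cells. A match of letters is a description and not a measured binding site.

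Ren1 was nearly absent from the endothelia gate and graded, without a gap, within the mesenchyme gate. In the endothelia gate, which should lack renin, 4 of 1129 wells held a Ren1 read (0.354%), and 0 reached 200 CPM, which allows a share of up to 0.266%. None of the 12 control wells held a Ren1 read. Of the other wells of the mesenchyme gate, 216 of 972 held at least 1 Ren1 read (22.2%), and 8 of these passed 200 CPM but were kept out by Col1a1 alone (1 healthy, 1 at day 2 and 6 at day 10). Median depth was 323291 reads on genes in renin wells, 355508 in the other gate wells and 397546 in endothelia wells. The wells nearest the Ren1 threshold held 211, 211 and 215 CPM on its inner side, against 187, 189 and 191 CPM on its outer side. There was no gap in Ren1 at the threshold, with 30 renin wells between 200 and 300 CPM and 32 wells from 100 to under 200 CPM.

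Within the renin wells, Ren1 had a median of 374 CPM in healthy wells, 429 CPM at day 2 and 845 CPM at day 10, with highest wells of 3249, 3261 and 5767 CPM. Levels of at least 1000 CPM were found in 3 of 18 healthy wells, 9 of 40 day 2 wells and 31 of 76 day 10 wells. Summed per mouse, Ren1 stood at 1574, 280, 500 and 386 CPM in healthy mice 1 to 4, at 720, 317, 404 and 944 CPM at day 2, and at 1783, 595, 851 and 872 CPM at day 10. The 3 conditions overlapped, and healthy mouse 1 stood above all 4 day 2 mice. No test was made, since the rule chose these wells by Ren1.

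The label was checked against markers. Akr1b7, an aldo-keto reductase that mouse renin cells make together with renin (chr6:34412334-34423142), reached at least 1000 CPM in 126 of 134 renin wells (94.0%), 294 of 972 other gate wells (30.2%) and 2 of 1129 endothelia wells (0.177%). Pooled over wells it stood at 11093 CPM in renin wells and 1193 CPM in the other gate wells. Mural markers were present. Pdgfrb, a growth factor receptor that marks mural cells, had a read in 99.3% of renin wells and 97.7% of other gate wells, and Acta2, smooth muscle actin, in 100% of renin wells and 99.8% of other gate wells. Pecam1 of endothelium (1.36 CPM) and Ptprc of leukocytes (0.14 CPM) were near 0, but other endothelial genes were not. The 10 endothelial genes together stood at 293 CPM in renin wells and 362 CPM in other gate wells, and none of them was at 0 in renin wells. Most of that sum was Emcn, which encodes endomucin, at 184 CPM in renin wells and 182 CPM in other gate wells, and it was read in 61.9% of renin wells and 60.4% of other gate wells. Over mice the endothelial sum in renin wells ranged from 24.1 to 1570 CPM in healthy mice, 10.2 to 166 CPM at day 2 and 107 to 483 CPM at day 10. The 8 leukocyte genes together stood at 15.2 CPM in renin wells and 69.9 CPM in other gate wells, and 2 of them were at 0 in renin wells. The source of these reads, in the wells' own cells or carried over from endothelium, was not tested, nor was their part in the results below. Akr1b7 and the mural markers were thus present in these wells together with reads of some genes on the endothelial list, mostly Emcn. Col1a1 was part of the rule and is no check of the label.

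Signs of other cells were not equal between conditions. Wells with at least 100 CPM of Pecam1, Ptprc or Kap, an abundant transcript of proximal tubule, numbered 17 of 134, with 11 of 18 healthy, 6 of 40 day 2 and 0 of 76 day 10 wells. Kap stood at 54.6, 625, 252 and 1482 CPM in healthy mice 1 to 4, at 82.1, 0, 53.1 and 10.9 CPM at day 2, and at 0, 0, 0 and 0.7 CPM at day 10. The 8 proximal tubule genes together ranged over mice from 195 to 2686 CPM in healthy, 1.2 to 746 CPM in day 2 and 0.351 to 62.6 CPM in day 10 renin wells. Among the 8 genes, 1 had 0 reads in all renin wells. The part of this difference in the results below was not tested, except where values without such wells are given. Doublets were not called.

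**Figure D1:**
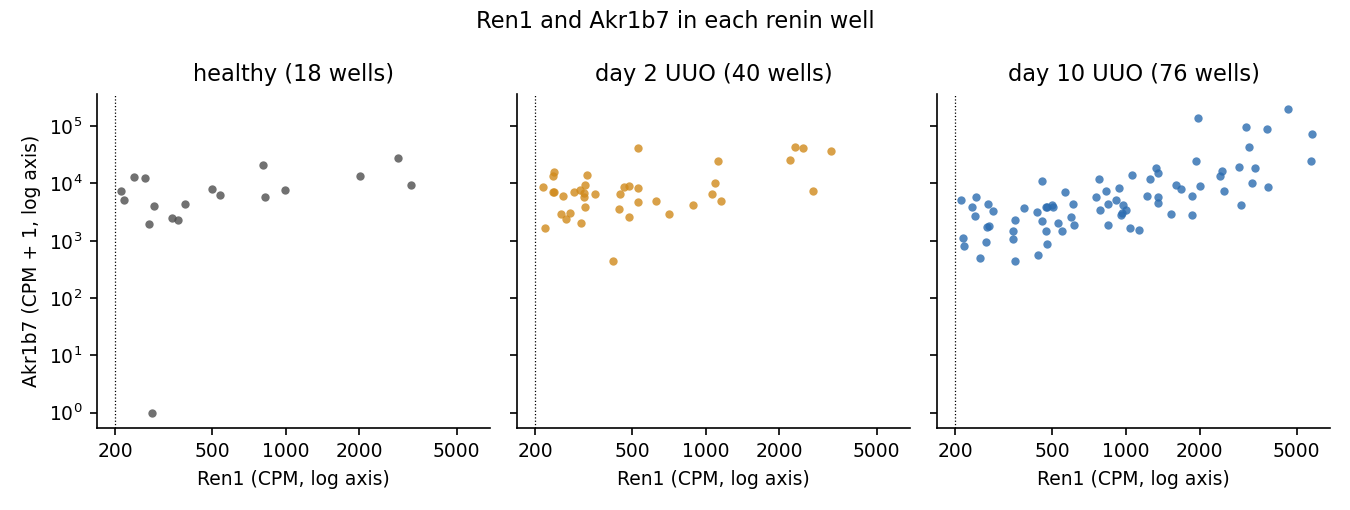
Each point is 1 renin well, with Ren1 in CPM on the x axis and Akr1b7 in CPM + 1 on the y axis, both on log axes, in panels for healthy (18 wells), day 2 UUO (40 wells) and day 10 UUO (76 wells). The dotted line marks the threshold of 200 CPM of Ren1. Almost all wells lie above 1000 CPM of Akr1b7 (126 of 134), and the day 10 panel holds most of the wells above 1000 CPM of Ren1 (31 of 43).

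The share of renin wells was higher at both times of obstruction than in healthy kidneys. Of the kept wells of the mesenchyme gate, 18 of 364 were renin wells in healthy kidneys, 40 of 366 at day 2 and 76 of 376 at day 10. In healthy mice 1 to 4 the share was 5.0%, 3.28%, 4.92% and 5.74% (6 of 120, 2 of 61, 3 of 61 and 7 of 122 wells). At day 2 it was 12.6%, 6.25%, 10.9% and 11.8% (14 of 111, 4 of 64, 7 of 64 and 15 of 127). At day 10 it was 25.4%, 14.1%, 26.2% and 15.2% (32 of 126, 9 of 64, 16 of 61 and 19 of 125). The 3 conditions did not overlap in any pair, and mouse 2 was the lowest in each of them.

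The mean share was 4.73% ± 1.04 in healthy kidneys, 10.4% ± 2.85 at day 2 and 20.2% ± 6.48 at day 10 (SD, n = 4 each). Day 2 was 5.67 percentage points above healthy (2.20 times the share), day 10 was 15.5 points above healthy (4.27 times), and day 10 was 9.82 points above day 2 (1.94 times). Each pair gave p = 0.0286 in a two-sided exact permutation test of the difference of means, which is the smallest p that 70 regroupings of 4 against 4 allow, and 0.0286 after adjustment over the 3 pairs. The difference had 1 direction in 4 of 4 mouse numbers in each pair. A share of sorted wells does not tell more renin wells apart from fewer other wells. Nor does it tell more renin cells apart from more Ren1 per cell, since Ren1 had no gap at the threshold. Of the kept wells of the gate, 20.6% in healthy kidneys, 32.8% at day 2 and 41.2% at day 10 held any Ren1 read. Which of these lay behind the share was not tested.

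The order of the conditions was the same under each definition tried, while the tests depended on the Ren1 level that was required. With at least 500 CPM the mean shares were 1.65%, 3.48% and 12.2% in healthy, day 2 and day 10 wells, and with at least 1000 CPM 0.625%, 1.83% and 7.41%. Neither gave an adjusted exact permutation p under 0.05 for any pair. Without the wells that carried 100 CPM of Pecam1, Ptprc or Kap, the shares were 2.28%, 9.60% and 20.7%. Among wells with smooth muscle features alone (Myh11, smooth muscle myosin, of at least 500 CPM and Col1a1 under 300 CPM), the shares were 5.03%, 12.4% and 32.7%. After each well was thinned to 20000 reads they were 5.14%, 11.8% and 20.4%.

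**Figure D2:**
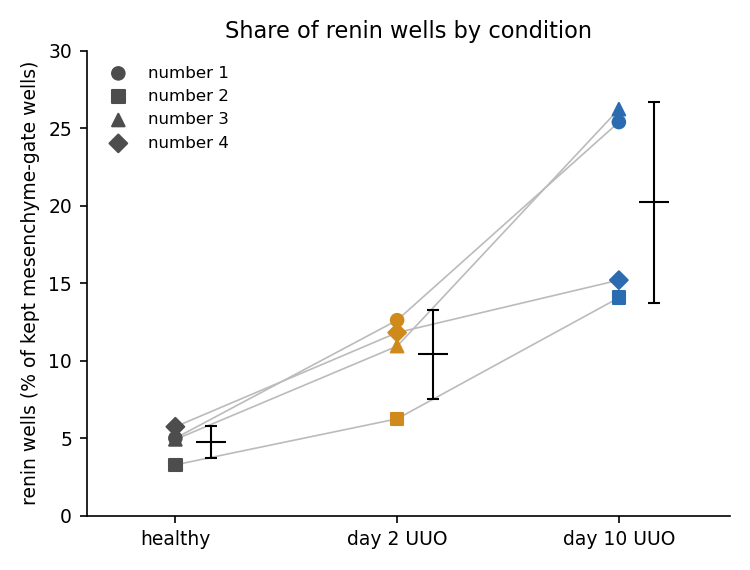
The y axis gives renin wells as a percentage of the kept mesenchyme-gate wells of a mouse, and the x axis the condition. Each symbol is 1 mouse number (1 to 4, joined by a grey line because these share plates), and the black bar with whiskers is the mean ± SD over 4 mice. The means were 4.73%, 10.4% and 20.2%, and every line goes up at each step.

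Genes beside Ren1 were compared between renin wells and the rest of the gate, without a test. Of 4791 genes with at least 50 CPM in either class, 57 (1.19%) were at least 2-fold higher in renin wells by the median over the 4 mouse numbers, with the ratio above 1 in all 4, and 220 (4.59%) were at least 2-fold lower. These counts come from the contrast that chose the wells, so nothing is read from them. Over all these genes the median log2 ratio was -0.02. The ratios pool wells of unlike conditions, with 18 healthy, 40 day 2 and 76 day 10 renin wells against 346, 326 and 300 other gate wells. Ratios below are log2 of CPM + 1, renin wells over other gate wells, as a median over mouse numbers with the lowest and highest.

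Akr1b7 had a median ratio of 2.89 (2.38 to 3.38). Rasal1, a GTPase-activating protein of Ras, stood at 55.2 CPM in renin wells and 2.87 CPM in other gate wells, a median ratio of 4.10, and was read in 24.6% of renin wells and 1.75% of other gate wells. Fam46a, a poly(A) polymerase, stood at 234 CPM in renin wells and 35.5 CPM in other gate wells, a ratio of 2.72, and was read in 64.9% of renin wells and 20.7% of other gate wells. These ratios describe the pooled wells, and about 1 renin well in 4 held a read of Rasal1.

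Several of the leading genes encode proteins of the cell surface and of local signalling. Sdc1, the heparan sulfate proteoglycan syndecan 1 (chr12:8771323-8793715), stood at 446 CPM in renin wells and 97.8 CPM in other gate wells (ratio 2.13, 1.72 to 2.33). Slco2a1, a prostaglandin transporter, stood at 954 CPM in renin wells and 310 CPM in other gate wells (1.68, 1.34 to 1.83) and was read in 94.0% of renin wells and 67.6% of other gate wells. Adora1, the adenosine A1 receptor, which holds back renin release, stood at 167 CPM in renin wells and 42.1 CPM in other gate wells (2.00), and P2ry2, a nucleotide receptor, at 60.0 CPM in renin wells and 23.3 CPM in other gate wells (1.58). Gja5, which encodes connexin 40, the gap junction protein that links renin cells (chr3:96904693-97077416), stood at 300 CPM in renin wells and 83.6 CPM in other gate wells (1.71). Its ratio was 0.15 to 2.98 over mouse numbers, and it stood at 8.08 CPM in 640 other gate wells with smooth muscle features, so the rest of the gate held Gja5 mostly in other kinds of wells.

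The other leading genes were Cdk18, a cyclin-dependent kinase (75.6 CPM in renin wells and 17.9 CPM in other gate wells, ratio 2.34), Gpr137b, a lysosomal membrane protein (170 CPM in renin wells and 47.4 CPM in other gate wells, 1.87), Scara3 (62.8 CPM in renin wells and 15 CPM in other gate wells, 1.82), Fign, which encodes the microtubule-severing protein fidgetin (302 CPM in renin wells and 89.9 CPM in other gate wells, 1.70), Atp8a1, a phospholipid flippase (143 CPM in renin wells and 50.8 CPM in other gate wells, 1.61), and Ntm, a cell adhesion molecule (65.3 CPM in renin wells and 21.4 CPM in other gate wells, 1.60). Ren2, a gene closely related to Ren1, was listed at 36.7 CPM in renin wells and 0.99 CPM in other gate wells. Reads of Ren1 and Ren2 can be shared between them, so the Ren2 value is uncertain.

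Among the genes that were lowest against the rest of the gate were markers of podocytes and fibroblasts, which other gate wells held. Podxl, which encodes podocalyxin, a surface protein of podocytes, stood at 2.14 CPM in renin wells and 731 CPM in other gate wells (ratio -7.91). Dcn, the matrix proteoglycan decorin, stood at 0.369 CPM in renin wells and 346 CPM in other gate wells (-8.07). In the 640 wells with smooth muscle features Podxl stood at 11.5 CPM and Dcn at 6.22 CPM.

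Of 18 granule and lysosome genes with at least 50 CPM, 1 was at least 2-fold higher and 1 lower by the same rule, and the list's median ratio was 0.17, beside -0.02 for all genes. Among all genes 1.19% were higher and 4.59% lower, and as for those counts nothing is read from the list's. The higher one was Ctsb, the lysosomal protease cathepsin B (chr14:63122462-63145923), at 3567 CPM in renin wells and 1240 CPM in other gate wells (1.17, 0.70 to 1.99). The lower one was Ctsl, cathepsin L, at 272 CPM in renin wells and 808 CPM in other gate wells (-1.86, -2.19 to -0.07). The 18 genes of protein folding in the endoplasmic reticulum had a median of 0.09, with none past 2-fold in either direction. Hspa5, the chaperone BiP, stood at 1408 CPM in renin wells and 950 CPM in other gate wells (0.49, -0.49 to 1.06).

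Of 21 genes of cyclic AMP and calcium control of renin release, 2 were higher (Gja5 and Adora1) and 1 lower, with a list median of 0.10. Among all genes 1.19% were higher and 4.59% lower, and nothing is read from the list's counts. The lower one was Piezo2, a mechanically gated channel, at 33.1 CPM in renin wells and 69.8 CPM in other gate wells (-1.28, -2.04 to -0.25). Npr1, the receptor of atrial natriuretic peptide, stood at 475 CPM in renin wells and 262 CPM in other gate wells (0.86, 0.72 to 1.01), and Pde4b, a cyclic AMP phosphodiesterase, at 405 CPM in renin wells and 233 CPM in other gate wells (0.85, 0.80 to 0.93). Adrb1, the beta 1 adrenergic receptor through which sympathetic nerves drive renin release, stood at 18.8 CPM in renin wells and 1.84 CPM in other gate wells and was read in 9.70% of renin wells. Gnas, the stimulatory G protein, stood at 2383 CPM in renin wells and 1961 CPM in other gate wells (0.25).

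Of 21 transcription factors and cofactors of the renin gene, 0 passed 2-fold in either direction, and their median was 0.18. The shares of all genes were 1.19% higher and 4.59% lower, and nothing is read from this count either. Notch2, a Notch receptor, stood at 595 CPM in renin wells and 320 CPM in other gate wells (0.93, 0.78 to 1.08). Within the renin-angiotensin system, Agtr1a, the angiotensin II receptor, stood at 672 CPM in renin wells and 515 CPM in other gate wells (0.37, -0.44 to 0.74). Agt, the substrate of renin, was at 0 CPM in renin wells and 8.9 CPM in other gate wells, and Ace, the converting enzyme, at 0.1 CPM in renin wells and 1.7 CPM in other gate wells.

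Contractile genes are given here over all conditions pooled, which hides differences between conditions. Acta2 stood at 18158 CPM in renin wells, 20115 CPM in other gate wells and 27803 CPM in the 640 wells with smooth muscle features, with median ratios of -0.03 and -0.54. In healthy mice alone Acta2 stood at 11942 to 16288 CPM in renin wells and 22575 to 25547 CPM in other gate wells, without overlap, while the median ratio to other gate wells was 0.08 at day 2 and 0.39 at day 10. Myh11 stood at 3212 CPM in renin wells, 3763 CPM in other gate wells and 5278 CPM in smooth muscle wells, with ratios of -0.22 and -0.64, where the second comparison group was chosen by Myh11. Its ratio to other gate wells was -0.06 at day 2 and 0.46 at day 10, and in healthy mice it stood at 1473 to 5020 CPM in renin wells and 4521 to 5562 CPM in other gate wells. The 16 contractile genes with at least 50 CPM had a median of 0.00 against other gate wells and -0.42 against smooth muscle wells. Among mesangial markers, which mark the contractile cells inside the glomerulus, Sfrp2, a secreted Wnt modulator, stood at 773 CPM in renin wells and 354 CPM in other gate wells (1.25) and Serpine2, a protease inhibitor, at 2570 CPM in renin wells and 1410 CPM in other gate wells (0.85). Gata3, a transcription factor of mesangium, stood at 306 CPM in renin wells and 233 CPM in other gate wells (0.35), while Art3 stood at 18.7 CPM in renin wells and 45.8 CPM in other gate wells.

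**Figure D3:**
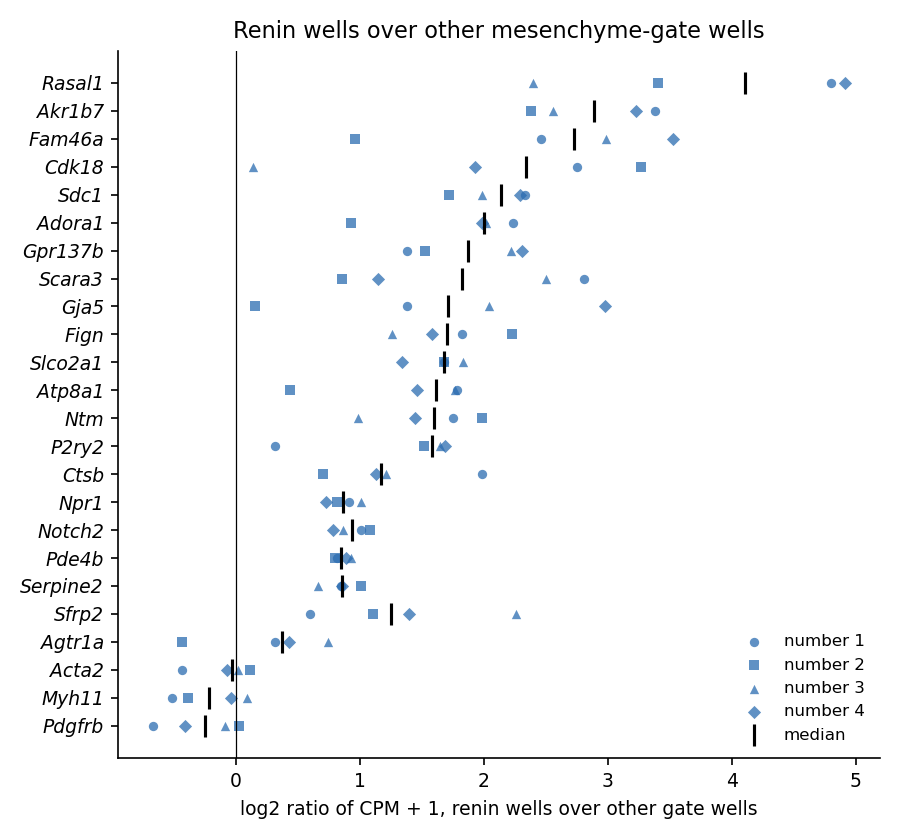
The x axis gives the log2 ratio of CPM + 1 in renin wells over other gate wells, and each line down the page 1 gene. The 4 symbols are the mouse numbers and the black tick is their median. Akr1b7 (2.89) and Sdc1 (2.13) lie to the right of 0 in each mouse number, and Acta2 (-0.03), Myh11 (-0.22) and Pdgfrb (-0.25) have medians near 0. Conditions are pooled in each ratio, and in healthy mice alone Acta2 was lower in renin wells than in other gate wells in each of the 4.

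Renin wells also differed among themselves, with more Ren1 beside less contractile RNA. Over the 134 wells, 17 of 17 contractile genes had a negative Spearman correlation with Ren1, beside 855 of the 2004 genes read in at least 50% of the wells, and the summed CPM of the 17 had a rho of -0.44. Some of the 17 were at about 0, such as Des (-0.01) and Cald1 (-0.01), and Actg2 was read in 5.97% of wells. In the 18 healthy wells Myl6 (0.14), Flna (0.11), Cald1 (0.25), Des (0.14) and Synpo2 (0.13) had a positive rho. The lowest of the 2004 genes (median rho 0.02) were Myl9, the regulatory myosin light chain (-0.44), Rergl, a Ras-like protein (-0.41), and Acta2 and Tagln (-0.40 each). The highest were Ren2 (0.72, with shared reads), Ptp4a3, a tyrosine phosphatase (0.54), Mgp, matrix Gla protein (0.52), Akr1b7 (0.50), and Ctsb and Cystm1 (0.46 each). Next came Litaf and Kdelr2 (0.39 each), Slc12a2, a sodium-potassium-chloride cotransporter (0.38), and Col18a1 (0.36). The wells share plates, mice and conditions, and reads per well had a rho of -0.25 with Ren1, so these values describe the wells and carry no p.

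With the wells in 3 groups by Ren1 (45, 44 and 45 wells, 211 to 382, 387 to 975 and 988 to 5767 CPM), median Akr1b7 was 3818, 4275 and 11885 CPM. Median Acta2 was 21697, 18959 and 10326 CPM over the same groups, and median Myl9 10837, 9566 and 5342 CPM. Median Ctsb was 1862, 2521 and 4130 CPM, and median Mgp 163, 362 and 2263 CPM. The group of highest Ren1 thus had the highest median of Akr1b7, Ctsb and Mgp and the lowest of both contractile genes. It held 4 healthy, 9 day 2 and 32 day 10 wells, against 9, 19 and 17 in the group of lowest Ren1. Within conditions, the rho of Akr1b7 with Ren1 was 0.42, 0.32 and 0.72 over 18 healthy, 40 day 2 and 76 day 10 wells, and that of Acta2 was -0.42, -0.25 and -0.48.

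**Figure D4:**
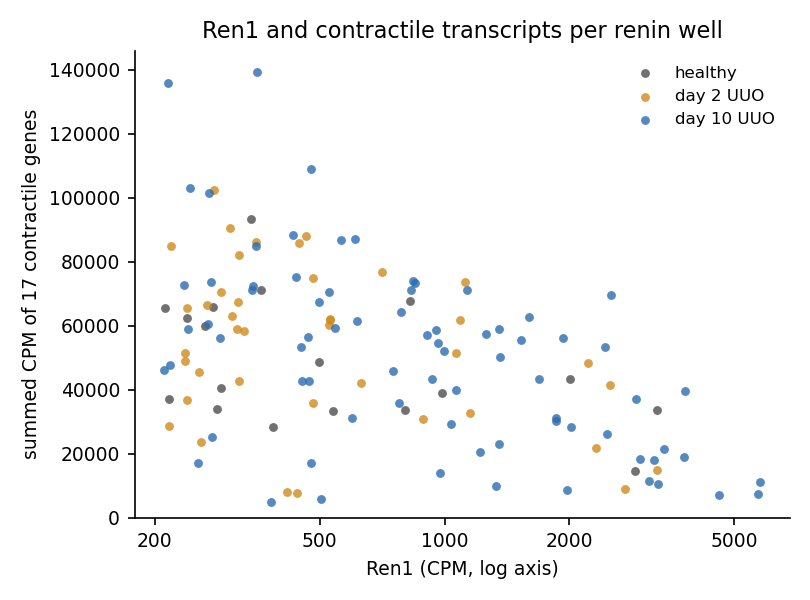
Each point is 1 of the 134 renin wells, coloured by condition, with Ren1 in CPM on a log x axis and the summed CPM of 17 contractile genes on the y axis. The points fall toward the right, with a Spearman rho of -0.44.

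A group of 22 renin wells held under 500 CPM of Myh11 (3 healthy, 5 day 2 and 14 day 10 wells). Their median Acta2 was 2508 CPM, against 19574 CPM in the other 112 renin wells, and their median Ren1 was 787 CPM, against 529 CPM in the others. In the wells of low Myh11, median Serpine2 was 4435 CPM, Sfrp2 1308 CPM, Agtr1a 1253 CPM, Gja5 353 CPM and Sparcl1 4085 CPM. In the others the medians were 1843 CPM of Serpine2, 289 CPM of Sfrp2, 362 CPM of Agtr1a, 0 CPM of Gja5 and 14379 CPM of Sparcl1. Serpine2, Sfrp2 and Agtr1a are on the mesangial list, and other members of it follow. Median Gata3 was 276 CPM in the wells of low Myh11 and 231 CPM in the others, and Itga8 12.5 and 2.97 CPM (means 209 and 119 CPM). Art3 and Pdgfra had medians of 0 CPM in each group. Each was read in 13.6% of the wells of low Myh11 and 3.57% of the others. Mean Art3 was 147 CPM in the wells of low Myh11 and 0.235 CPM in the others, and mean Pdgfra 64.1 and 0.136 CPM. The wells were split by Myh11 after the values were seen, so no test was made and no cell type is named for them.

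How the genes of renin wells changed with obstruction was tested on counts summed per mouse. Sums of at least 3 wells entered, which left healthy mice 1, 3 and 4 (6, 3 and 7 wells, 1020720 to 2140739 reads) and all 4 mice at day 2 and at day 10. By edgeR's quasi-likelihood test with Benjamini-Hochberg adjustment, 1 of 10323 genes (0.00969%) was called at day 2 against healthy, 1 (0.00969%) at day 10 against healthy and 0 (0.0%) at day 10 against day 2. At an unadjusted p under 0.05 there were 679, 922 and 281 genes, and DESeq2 called 644, 658 and 212. The median log2 change of all genes tested was 0.54, 1.21 and 0.47, and that of the 646 genes at a mean log2 CPM of at least 8 was 0.17, 0.20 and 0.03, so low genes had the higher estimates at later times in these sums. Without the wells that held 100 CPM of Pecam1, Ptprc or Kap, too few healthy sums were left for a test, and day 10 against day 2 again had 0 calls.

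The gene that passed in both comparisons was Sparcl1, a secreted matrix-associated relative of SPARC (chr5:104079111-104113733). It stood at 4903, 6324, 3643 and 5544 CPM in renin wells of healthy mice 1 to 4, at 12289, 16714, 14801 and 12728 CPM at day 2, and at 12728, 15288, 16122 and 15691 CPM at day 10. Both obstructed groups lay above all healthy mice and overlapped each other. Sparcl1 rose by 1.61 ± 0.18 on the log2 scale at day 2 (SE; 3.06-fold, edgeR adjusted p = 0.00598) and by 1.74 ± 0.18 at day 10 (3.33-fold, edgeR adjusted p = 0.00254). It was past the threshold in 17 of 18 alternatives at day 2 (log2 changes 1.30 to 1.83, lost with at least 5 wells per sum, adjusted p = 0.0541) and in 18 of 18 at day 10 (1.46 to 2.05).

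Sparcl1 was also higher in the other gate wells after obstruction. There it stood at 6330, 6666, 5119 and 5805 CPM in healthy mice, 10804, 10819, 9813 and 11033 CPM at day 2, and 9669, 12617, 7393 and 8406 CPM at day 10. The change was 0.82 ± 0.13 at day 2 (edgeR adjusted p = 0.0114) and 0.66 ± 0.13 at day 10 (adjusted p = 0.0501). The tested difference of the changes, renin wells minus other gate wells, was 0.78 ± 0.19 at day 2 (adjusted p = 0.0554) and 1.07 ± 0.19 at day 10 (adjusted p = 0.00931).

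Genes that encode acute-phase and injury-induced proteins were examined as a list. Of the 16 genes of that list 12 were tested, 0 were called in any of the 3 comparisons within renin wells, and 12 of 12 estimates were positive against healthy at day 2 and at day 10. The list was chosen with earlier results of these data known. Members near 0 in healthy sums, such as Itih4, entered the test only through the obstructed sums where they were high. Nothing is therefore read from the count of positive estimates or from the list's median log2 changes against healthy. These medians were 5.95 at day 2 and 5.71 at day 10, beside 0.54 and 1.21 for all genes. For day 10 against day 2 the list's median was 0.55, beside 0.47 for all genes. Itih4, a heavy chain of the inter-alpha-trypsin inhibitor family (chr14:30886476-30902353), stood at 23.7, 0, 0 and 0.467 CPM in healthy mice, 1118, 1856, 311 and 889 CPM at day 2 and 849, 1577, 1800 and 1935 CPM at day 10. All 8 obstructed mice lay above all 4 healthy mice, with edgeR adjusted p of 0.0851 and 0.0604. Its change was past the threshold in 10 of 18 alternatives at day 2 and 11 of 18 at day 10. Itih4 was read in 2 of 18 healthy, 28 of 40 day 2 and 56 of 76 day 10 renin wells.

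Clu, a secreted chaperone, stood at 1355, 0, 233 and 325 CPM in healthy mice, 2622, 586, 1200 and 3043 CPM at day 2 and 2166, 1217, 2264 and 2393 CPM at day 10 (edgeR adjusted p of 0.402 and 0.338). Healthy mouse 1 overlapped the obstructed mice in Clu. Itih4 was not particular to renin wells, since the other gate wells stood at 4.50, 33.4, 3.0 and 16.8 CPM in healthy mice, 667, 842, 1188 and 800.0 CPM at day 2, and 724, 988, 411 and 783 CPM at day 10.

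Other genes of smallest p did not pass either. Synm, the intermediate filament protein synemin of muscle (chr7:67730160-67759742), stood at 35.9, 98.3, 24.5 and 14 CPM in healthy mice, 360, 409, 531 and 246 CPM at day 2 and 222, 297, 273 and 383 CPM at day 10 (log2 changes 4.04 ± 0.67 and 3.74 ± 0.66, edgeR adjusted p of 0.0851 and 0.139). With no replicate block Synm passed in both comparisons (adjusted p of 0.0111 and 0.0256). Vldlr, a lipoprotein receptor, and Aldh18a1, an enzyme of proline synthesis, were at or under 1.1 CPM in each healthy mouse. At day 2 Vldlr stood at 101 to 350 CPM and Aldh18a1 at 217 to 351 CPM (adjusted p = 0.0527 for each), and at day 10 at 125 to 259 CPM and 46.4 to 195 CPM (adjusted p of 0.0604 and 0.104). Kap, the tubule transcript described above, had an adjusted p of 0.104 at day 10 against healthy.

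Some genes had lower values after obstruction without passing. Tusc5, a regulator of glucose transporter traffic, stood at 1426, 96.4, 2353 and 622 CPM in healthy mice, 165, 251, 254 and 312 CPM at day 2 and 163, 438, 293 and 365 CPM at day 10 (-2.57 ± 0.48 at day 2, edgeR adjusted p = 0.231). Healthy mouse 2 lay under every obstructed mouse in Tusc5, and it gave no renin sum and was not in the fit. The change in Tusc5 at day 2 ran from -3.13 to -1.53 over the alternatives. Sdc1, one of the genes that set renin wells apart, stood at 1095, 896, 1194 and 800 CPM in healthy mice, 340, 177, 95.1 and 686 CPM at day 2 and 321, 256, 520 and 265 CPM at day 10. The healthy and obstructed mice did not overlap in Sdc1, with adjusted p of 0.683 and 0.556. Akr1b7 stood at 10998, 736, 6738 and 8027 CPM in healthy mice, 10092, 7776, 5367 and 14271 CPM at day 2 and 22689, 4193, 5795 and 4613 CPM at day 10. The conditions overlapped, with log2 changes of 0.39 ± 0.36 and 0.15 ± 0.35 that did not pass. Over the alternatives the change at day 10 ran from -0.35 to 0.60. Of day 10 mouse 1, 1 well held 201755 CPM of Akr1b7, and without that well the mouse stood at 18222 CPM over 31 wells.

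Between day 10 and day 2, the 5 genes of smallest p were Hexa, Adck5, Ctgf, Mgp and Sirpa, each with an edgeR adjusted p of 1. Mgp, an inhibitor of calcification (chr6:136872435-136875823), stood at 1383, 0, 58.8 and 175 CPM in healthy mice, 1446, 23.4, 106 and 1775 CPM at day 2, and 3967, 296, 3466 and 2358 CPM at day 10, a difference of 2.84 ± 0.80 between day 10 and day 2. Ctgf, a matricellular growth factor, stood at 145, 453, 107 and 325 CPM at day 10 and 496, 973, 754 and 501 CPM at day 2 (-1.59 ± 0.44). None of the 19 gene lists had a member called within renin wells in any comparison. The median changes of the 27 cyclic AMP and calcium genes tested were 0.87 and 0.87 at day 2 and day 10 against healthy, and those of the 22 granule and lysosome genes 0.24 and 0.89, beside 0.54 and 1.21 for all genes. The 16 contractile genes had medians of 0.14 and 0.09, and the 8 pericyte genes -0.40 and -0.46.

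**Figure D5:**
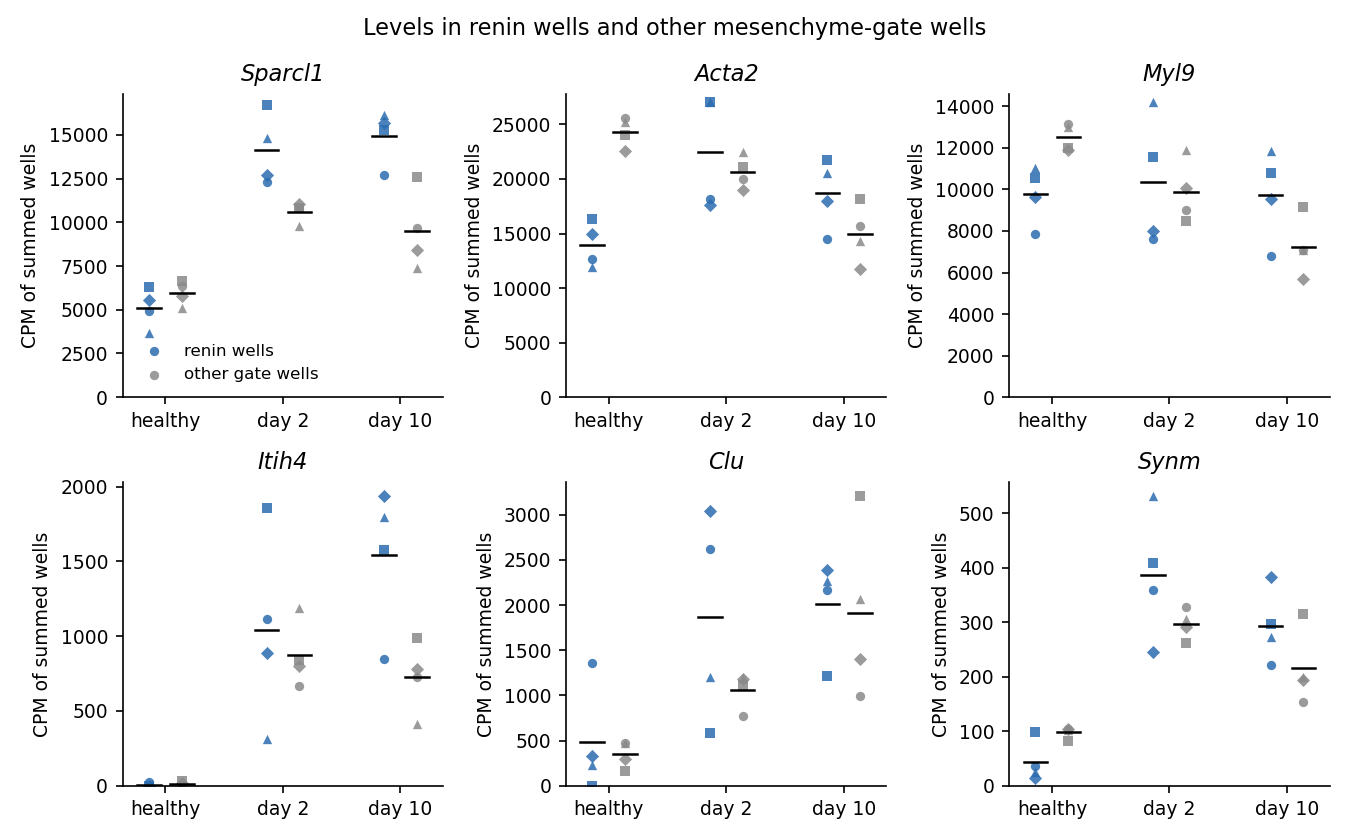
Each panel is 1 gene (Sparcl1, Acta2, Myl9, Itih4, Clu and Synm), with CPM of the summed wells on the y axis and condition on the x axis. Symbols are the 4 mouse numbers in renin wells (blue, left) and other gate wells (grey, right), and black bars are means. In renin wells Sparcl1 lies at 12289 to 16714 CPM in all 8 obstructed mice and at 3643 to 6324 CPM in healthy mice, and Acta2 in the other gate wells lies lower at day 10 (11755 to 18149 CPM) than in healthy mice (22575 to 25547 CPM).

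Whether the change with obstruction differed between renin wells and the other gate wells was tested as an interaction. Healthy mice gave 3 renin sums and 4 sums of other gate wells. The renin sum and the other gate sum of a mouse entered as separate samples. The mouse number was a block across conditions, but no term was fitted for each mouse. The p-values of the interaction thus leave out this pairing. At day 2, 103 of 14841 genes (0.694%) passed, with 92 of them higher in renin wells relative to the other gate wells and 11 lower. At day 10, 151 genes (1.02%) passed, of which 146 had the higher change in renin wells and 5 the lower. Most of the higher calls rested on healthy renin sums without a read: 81 of 92 and 125 of 146 had 0 reads in at least 1 of the 3 healthy sums, and 47 and 66 had 0 in all 3. The genes of largest difference belonged to this kind, such as Snx10, Dusp10 and Tmem38a, and no fold is given for them. The median difference of all genes was 0.33 at day 2 and 0.67 at day 10, and 0.15 and 0.30 for the 612 genes at a mean log2 CPM of at least 8. With reads in every healthy sum there were 16 called genes for day 2, 11 higher and 5 lower in renin wells, and 23 for day 10, of which 21 were higher.

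Contractile genes were among those with reads throughout. Acta2 (chr19:34241090-34255590) stood at 12696, 16288, 11942 and 14972 CPM in renin wells of healthy mice 1 to 4, 18161, 27067, 27019 and 17631 CPM at day 2 and 14511, 21781, 20551 and 17948 CPM at day 10. In the other gate wells it stood at 25547, 24008, 25245 and 22575 CPM in healthy mice, 20030, 21136, 22492 and 19019 CPM at day 2 and 15712, 18149, 14311 and 11755 CPM at day 10. In healthy mice all 4 values of renin wells lay under all 4 of the other gate wells, while at day 10 the 2 ranges overlapped. The change from healthy was higher in renin wells by 1.00 ± 0.18 log2 at day 2 (2.00-fold, edgeR adjusted p = 0.0120) and by 1.24 ± 0.18 at day 10 (2.37-fold, adjusted p = 0.00185).

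Acta2 was also tested within each class. Within renin wells they were 0.72 at day 2 (edgeR adjusted p = 0.361) and 0.50 at day 10 (adjusted p = 0.556), neither of which passed, although the 4 mice at day 2 lay above the 4 healthy mice. In the other gate wells the change was -0.25 ± 0.12 at day 2, which did not pass (edgeR adjusted p = 1.0), and Acta2 fell by 0.71 ± 0.12 at day 10 (adjusted p = 0.0292). Against only the other gate wells with smooth muscle features, the difference was 0.96 at day 2 (adjusted p = 0.0388) and 0.64 at day 10 (adjusted p = 0.169), so the call was kept at day 2 and lost at day 10. At day 2 it was also lost without mouse number 2 or 3 (adjusted p of 0.0565 and 0.116) and without plate 2 (0.197). The day 10 call thus depended on which other gate wells were compared.

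Of the 17 contractile genes, 1 at day 2 and 3 at day 10 had a higher change in renin wells and 0 a lower one. Their medians were 0.46 and 0.82, beside 0.33 and 0.67 for all genes. Of all genes 0.694% and 1.02% passed, and 92 of 103 and 146 of 151 calls were higher in renin wells. The lack of lower calls is thus not read as a result about contractile genes. Mylk, myosin light chain kinase, had a difference of 1.23 ± 0.27 at day 10 (edgeR adjusted p = 0.0398) and Myl9 of 0.90 ± 0.20 (adjusted p = 0.0405). Myl9 stood at 6778, 10811, 11853 and 9547 CPM in renin wells at day 10 and 7856, 10560, 11022 and 9623 CPM in those of healthy mice. In the other gate wells it stood at 7102, 9156, 7063 and 5687 CPM at day 10 and 13137, 12013, 13002 and 11889 CPM in healthy mice. Renin wells thus held Myl9 in overlapping ranges in both conditions, while the ranges of the other gate wells did not overlap. Against smooth muscle wells alone, Mylk (0.74, adjusted p = 0.197), Myl9 (0.34, adjusted p = 0.443) and Sparcl1 (0.49, adjusted p = 0.229) were not called at day 10, and with DESeq2 size factors none of the 3 was (adjusted p of 0.114, 0.201 and 0.0527). Without mouse number 3 none of the 3 was called either (adjusted p of 0.190, 0.178 and 0.0540), and Mylk and Myl9 were also lost without mouse number 1 (0.157 and 0.0943), without plate 1 (0.0581 and 0.102) and in other alternatives, being past the threshold in 10 and 8 of 19. Myh11, at 1.13 ± 0.30 (adjusted p = 0.0759), did not pass.

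Genes of other functions passed at one or both times. Synm had a difference of 2.44 at day 2 (edgeR adjusted p = 0.0298) and 2.57 at day 10 (adjusted p = 0.0240). Gadd45b, a stress-induced gene, had 2.72 at day 2 (adjusted p = 0.0367) and 2.54 at day 10 (adjusted p = 0.0458). It stood at 157, 260, 29.4 and 233 CPM in renin wells of healthy mice, 813, 1349, 1039 and 717 CPM at day 2 and 630, 1326, 1279 and 1280 CPM at day 10, so that no obstructed mouse overlapped a healthy one. The difference in Gadd45b was past the threshold in 15 of 19 alternatives at day 2 and 9 of 19 at day 10, and that in Synm in 10 and 12 of 18. At day 2, leaving out mouse number 1, 2 or 4 ended the call of Gadd45b (adjusted p of 0.0990, 0.119 and 0.0688), and leaving out 2, 3 or 4 that of Synm (0.0565, 0.174 and 0.117). In the other gate wells the ranges of Gadd45b overlapped, at 328 to 628 CPM in healthy mice, 339 to 628 CPM at day 2 and 328 to 750 CPM at day 10.

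Npy1r, the Y1 receptor of the sympathetic cotransmitter neuropeptide Y, had a difference of 3.12 at day 10 (edgeR adjusted p = 0.0163) and 1.87 at day 2, which did not pass (adjusted p = 0.145). It stood at 258, 1156, 483 and 379 CPM in renin wells at day 10 and 24.8, 364, 104 and 89.2 CPM in those of healthy mice. In the other gate wells it stood at 389, 712, 233 and 215 CPM at day 10 and 428, 609, 374 and 458 CPM in healthy mice. Both pairs of ranges overlapped, by 1 healthy mouse in renin wells. Against smooth muscle wells alone Npy1r kept its call at day 10 (2.56, adjusted p = 0.0469), while without mouse number 3 or 4 or plate 2 it was lost (0.0540, 0.0563 and 0.0758). Hey2, a transcription factor that Notch induces, had 3.69 at day 10 (adjusted p = 0.0340), a call lost without mouse number 1, 2 or 3 (0.189, 0.0626 and 0.0993). It stood at 209, 261, 201 and 284 CPM in renin wells at day 10 and 22.6, 0, 4.9 and 95.8 CPM in those of healthy mice, without overlap, while the other gate wells held 77.6, 147, 69.8 and 97.6 CPM at day 10 and 200, 213, 113 and 150 CPM in healthy mice.

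Nr4a1, an immediate early nuclear receptor, had a difference of 1.02 ± 0.23 at day 2 (edgeR adjusted p = 0.0407). Of 13 immediate early genes it was the 1 that passed, beside 0.694% of all genes. It stood at 2729, 5621, 4796 and 4156 CPM in renin wells at day 2 and 1336, 601, 2784 and 2235 CPM in those of healthy mice, where the lowest day 2 mouse lay under the highest healthy mouse. This call held in 5 of 19 alternatives and was lost without any 1 mouse number (adjusted p of 0.0520 to 0.203) and with no replicate block (0.230). Of 24 granule and lysosome genes 1 passed at day 2, beside 0.694% of all genes. This was Hexa, the alpha subunit of the lysosomal enzyme beta-hexosaminidase, with a lower change in renin wells (-6.49 ± 0.95, edgeR adjusted p = 0.00173). It stood at 88.8, 0, 91.1 and 149 CPM in renin wells of healthy mice, 1.5, 0, 1.4 and 0.4 CPM at day 2 and 61.7, 95.8, 85.1 and 165 CPM at day 10, so the low values were those of day 2. The call was lost without plate 2 or plate 6 (adjusted p of 0.153 and 0.0587). In the other gate wells Hexa stood at 59.7 to 112 CPM at day 2 and 67.2 to 122 CPM in healthy mice.

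Sum depth stood beside these differences. Renin sums held 2848808 to 9411952 reads at day 10, against 1020720 to 2140739 in healthy mice, and the sums of the other gate wells held 14164550 to 42206022. The part of depth in the calls was not tested beyond the count of genes at 0 reads and the values of genes at a mean log2 CPM of at least 8. Among those genes, 5 were called at day 2 and 5 at day 10, and Acta2 kept its call in both (0.83, adjusted p = 0.0489, and 0.92, adjusted p = 0.0443). Mast4, a kinase, Myo1c, a myosin, Mustn1 and Synm also had reads in all healthy sums and were called at day 10, at differences of 4.94, 2.94, 1.27 and 2.57. Healthy mouse 2, with 2 renin wells, gave no renin sum, while its 59 other gate wells did enter. Its renin wells held 686 CPM of Mast4 and 525 CPM of Myo1c. The 3 healthy mice with a renin sum held 0.5 to 9.8 and 15.4 to 56.5 CPM, so these differences rest on which healthy renin wells were summed. With sums of at least 1 well, which let the renin wells of mouse 2 in, the difference in Mast4 at day 10 was 1.35 (adjusted p = 0.857).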

How the data were processed

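The authors deposited, per plate, raw read counts per gene and well, not normalized, and a layout of the wells. STAR and mm10 are named, without a version, in the submitters' processing notes. The counting tool, annotation and strandedness are not given in the sources used here, so overlapping genes and close relatives (Ren1 and Ren2) can share reads. Entries with 1 symbol were added (23998 symbols). Of 2292 sorted wells, 2235 held at least 1000 genes and 20000 reads and were kept. Spike-in counts were not used. The layout number was taken as the mouse. Where it is not, p-values measure only the spread between these sums, which may be technical.

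Renin wells were compared as shares (exact permutation tests over mice) and as counts summed per condition and number, with at least 3 wells, in edgeR 4.0.16 (R 4.3.3; TMM, filterByExpr, quasi-likelihood F test, number as a block, Benjamini-Hochberg threshold 0.05, tested on simulated data). SE is the log2 change over the square root of F. Levels are CPM of the summed wells without TMM, so they can differ from the fitted changes. Same-numbered sums shared deviations weakly (r from 0.00659 to 0.0335 over 7978 genes), so the block rests on shared plates. Alternatives included DESeq2 1.42.0. Descriptions used Python 3.11.15 (numpy 2.4.6, scipy 1.17.1, pandas 2.3.3). Limits for counts of 0 (3 counts) hold for counting error alone, because the reads have no molecular identifiers.

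The members and the 19 gene lists (263 genes) were chosen with earlier results of these data known. Named were the genes past the threshold of largest change with 1 sign in every number and a mean log2 CPM of at least 4, or the 5 of smallest p where fewer than 5 passed; genes of largest median ratio to other gate wells (up to 15 each way, at least 50 CPM, 1 sign); the 10 of highest correlation with Ren1; and up to 6 members of each list. Some genes that these rules name are not reported here. Interaction genes with reads in every healthy renin sum, the lowest correlations, and the split by Myh11 were picked after their values were seen. Positions are from the GENCODE vM21 annotation of GRCm38.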

Additional observations from a re-analysis of the deposited data

Results flagged for a closer look

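In 4 of 39 sets of 4 mice examined, 1 mouse stood apart from the other 3 by its gap over the range, which chance does in about 1 set in 20. Healthy mouse 1 stood at 1574 CPM of Ren1 in its renin wells, against 280 to 500 CPM in the other healthy mice (gap over range 0.830). It also stood apart in Mgp, at 1383 CPM against 0 to 175 CPM (0.873), and in Itih4, at 23.7 CPM against 0 to 0.467 CPM (0.980). Day 10 mouse 1 stood at 22689 CPM of Akr1b7 against 4193 to 5795 CPM in the other day 10 mice (0.913). Of that value, 1 well of 201755 CPM carried a part, and 18222 CPM remained without it.

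The change with obstruction differed between renin wells and other gate wells by edgeR's interaction test for 103 of 14841 genes (0.694%) at day 2 and 151 (1.02%) at day 10. Of the higher calls, 81 of 92 and 125 of 146 had 0 reads in at least 1 healthy renin sum. Among the genes checked for this section, Acta2 (1.00), Nr4a1 (1.02) and Synm (2.44) had a higher log2 change in renin wells at day 2 and Hexa (-6.49) a lower one. These calls held in 16 of 19, 5 of 19, 10 of 18 and 16 of 18 alternatives. At day 10 Acta2 (1.24), Sparcl1 (1.07), Myl9 (0.90), Mylk (1.23) and Synm (2.57) had a higher one. Those calls held in 18, 15, 8 and 10 of 19 and in 12 of 18. Other called genes are described above.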

How the results depend on the processing

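The share of renin wells had the order healthy, day 2, day 10 in each alternative run. The difference of day 2 and healthy was no longer past the threshold with Ren1 of at least 500 CPM (1.83 percentage points) or 1000 CPM (1.2), and that of day 10 and healthy likewise (10.5 and 6.78). The difference of day 10 and day 2 was lost with Ren1 of at least 100, 500 or 1000 CPM (9.71, 8.71 and 5.58 points), after thinning to 20000 reads (8.62) and as a share of wells with smooth muscle features (20.3). Without 1 mouse number the differences were 5.02 to 6.57 (day 2 minus healthy), 13.5 to 17.5 (day 10 minus healthy) and 8.0 to 12.0 points (day 10 minus day 2). With 3 against 3 the smallest exact permutation p is 0.1.

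Counts of called genes moved more. Within renin wells, day 2 and day 10 against healthy gave 38 and 34 calls with no low-count filter (day 10 against day 2 gave 3), 2 and 3 with at least 5 wells per sum, 4 and 2 with at least 1 well, 7 and 9 with sums per plate, and 644 and 658 with DESeq2 (212 for day 10 against day 2). In renin wells with at least 500 CPM of Myh11 they gave 5 and 3, and over genes at a mean log2 CPM of at least 8 they gave 5 and 2. The last 2 settings were chosen after the data were seen, as was leaving out a plate. Without 1 mouse number the counts were 1 to 7 and 1 to 9. They were 7 and 9 without plate 1, then 4 and 7 without plate 2, and 7 and 5 when plate 6 was left out. With no replicate block the paired comparisons gave 4 and 5 calls, and the interactions 285 and 310.

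The interaction counts at day 2 and day 10 were 405 and 454 with at least 5 wells per sum, 62 and 74 with at least 1 well, 386 and 534 with sums per plate, 252 and 287 without plate 1, and 5 and 5 over genes at a mean log2 CPM of at least 8. At day 10 they were 63 with DESeq2 size factors and 64 against smooth muscle wells. Without 1 mouse number they were 74 to 133 at day 2 and 87 to 120 at day 10. DESeq2 size factors moved the median change of all genes by -0.20, -0.26 and -0.07 log2 in the 3 comparisons within renin wells and by -0.19 and -0.29 in the interactions. No value that passed a threshold changed direction in any alternative. Estimates within renin wells that passed in none of the alternatives took both signs for Myh11 (-0.22 to 0.65 at day 2 and -0.14 to 0.58 at day 10, against healthy), Pdgfrb (-0.74 to 0.07 and -0.66 to 0.17, likewise), Akr1b7 (-0.35 to 0.60 at day 10 against healthy and -0.76 to 0.19 at day 10 against day 2) and Acta2 (-0.37 to 0.02 at day 10 against day 2).

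The cause of these moves was not tested. Healthy sums within renin wells hold 3 to 7 wells. With Ren1 of at least 500 CPM, or without mixed wells, too few healthy sums were left, so those alternatives were run for day 10 against day 2 alone.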
